A study of Rattus norvegicus and Mus musculus with 12 samples.

Results

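The core circadian clock genes are the 10 genes Arntl (also called Bmal1), Clock, Per1, Per2, Per3, Cry1, Cry2, Nr1d1, Nr1d2 and Dbp, and their RNA levels were measured here in articular chondrocytes, the cells of joint cartilage, from rats and mice. The members were the rows with these gene symbols, and all 10 were found among the 19687 genes of the rat table and all 10 among the 28603 genes of the mouse table. The chondrocytes came from newborn SD (Sprague-Dawley) rats and C57BL/6 mice and were used at passage 1. The rat control group (RC) and the mouse control group (MC) were unstimulated, and the rat model group (RM) and the mouse model group (MM) received IL-1β, an inflammatory cytokine used to mimic osteoarthritis in culture, at 20 ng/ml for 24 h. Each group held 3 RNA-seq libraries, 12 in all. The strain labels of the mouse libraries run from C57BL/6 to C57BL/9, whereas the methods name C57BL/6 for every mouse. The methods describe the samples of a group as independent, but neither they nor the labels say whether these came from separate animals or cultures, so the P values may measure a spread that is partly technical.

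The clock is a transcription feedback loop that runs in nearly every mammalian cell, chondrocytes included. ARNTL and CLOCK bind E-box sequences as a pair and switch on the Per and Cry genes, whose proteins then repress that pair. The pair also switches on the nuclear receptors NR1D1 and NR1D2 (REV-ERBα and REV-ERBβ), which repress Arntl through RORE sequences, and Dbp, an output factor that binds D-box sequences. In a cell with a running clock Arntl peaks when Dbp, Nr1d1 and the Per genes are low, so a value depends on the hour of harvest. The time of day of sampling is not given and each group was sampled at 1 time, so a shift in phase and a change in the mean level cannot be told apart here.

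Library totals lay between 16841580 and 25903459 counts. The members were read by 252 to 2276 counts per library in rat and by 58 to 1698 in mouse, and all 10 passed the filter on low counts in both species. Rat replicates differed more than mouse replicates: the chi-square per degree of freedom between libraries of a group, which is 1 for sampling noise alone, was 6.07 to 27.8 in rat and 1.90 to 2.49 in mouse. The highest rat values, 27.81 and 15.99, involved RC replicate 1, and RC replicates 2 and 3 gave 12.38. The rat fits of the members and the rat ratio shifts are therefore also given without RC replicate 1. For the companion genes only the counts are given without it. All 6 genes listed as a check of the IL-1 response (Nfkbia, Il6, Mmp3, Mmp13, Cxcl1 and Ptgs2) rose in both species. Nfkbia, a direct target of the NF-κB pathway, rose 4.25-fold in rat and 8.86-fold in mouse, and Mmp13, a collagenase, rose 8.17-fold and 31.1-fold. All 7 chondrocyte markers (Col2a1, Acan, Sox9, Col9a1, Comp, Matn1 and Hapln1) were present in every group and all 7 fell in both species. Their summed level went from 3972 to 4639 FPKM in RC to 1402 to 1456 in RM and from 1913 to 1959 in MC to 169 to 182 in MM. The summed level of 6 macrophage markers was 5.41 to 6.49 FPKM in RC, 7.61 to 11.7 in RM, 3.96 to 4.99 in MC and 8.24 to 9.63 in MM, with Adgre1 at 0 in every MM library. Cd68 gave most of it and rose in both species (log2 fold change 0.92 in rat and 1.50 in mouse). Csf1r fell in rat (-1.20) and rose in mouse (0.70), and Fcer1g was not called in rat (0.28, edgeR adjusted P = 0.698). Ptprc, which marks all leukocytes, had 1 to 20 counts per group. The 5 muscle markers summed to 3.81 to 4.35 FPKM in MC and 0.390 to 0.816 in MM, with Myod1 at 0 in every MM library, and to 3.16 to 4.18 in RC and 2.67 to 3.07 in RM, with Myog at 0 in every RM library. The 5 fibroblast markers summed to 731 to 804 FPKM in RC, 687 to 727 in RM, 50.8 to 53.2 in MC and 48.6 to 51.3 in MM. Thy1 gave most of the rat sums, with a mean of 726 FPKM in RC and 660 in RM, but 12.5 in MC and 3.48 in MM. Single fibroblast markers moved within these sums. In mouse, Thy1 and Dpt fell (log2 fold change -1.56 and -3.06), while Cd34 rose (1.49) and Pdgfra was called higher (0.26) though its FPKM overlapped. In rat, Cd34 and Pi16 fell (-2.36 and -0.66). The endothelial markers, 5 in the mouse table and 4 in the rat table, stayed below 1 FPKM in sum, with Vwf higher (2.18) and Tek lower (-0.80) in mouse. The part of these shifts in the clock gene results was not tested, and in bulk RNA fewer cells of a type and less RNA per cell cannot be told apart.

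In rat chondrocytes the clock genes moved little. Arntl had upregulated expression in the RM group, and Per1, Cry2 and Dbp had downregulated expression, while the other 6 members did not pass the test (edgeR quasi-likelihood test, Benjamini-Hochberg adjusted P under 0.05 over all genes tested). The 4 members called in either direction stand beside 35.1% of the 13303 genes tested. The 1 member called higher stands beside 18.3% of genes called higher, and the 3 members called lower stand beside 16.8% called lower. The median absolute log2 fold change was 0.27 for the members and 0.26 for all genes tested, and the signed medians were -0.15 and 0.01. None of the 10 met the study's criteria for a differentially expressed gene (P below 0.05 without adjustment, a fold change limit of 0.85, read here as an absolute log2 change, and 1 FPKM or more in some library), which 8.54% of genes met, 4.64% as higher and 3.9% as lower. Without RC replicate 1, 3 members (Arntl, Clock and Nr1d2) were called higher and 5 (Per1, Per3, Cry2, Nr1d1 and Dbp) lower, while calls over all genes also rose, to 24.1% higher and 22.4% lower. In that fit the log2 fold change was 0.37 for Arntl (adjusted P = 0.00621), -0.42 for Per1 (0.00561), -0.52 for Cry2 (4.26e-05) and -0.69 for Dbp (5.84e-06). Per2 at 0.13 (0.258) and Cry1 at -0.04 (0.839) did not pass. Leaving out any other single rat library instead gave 0 members higher and 2 or 3 lower. Over all genes those fits called 1735 to 1960 higher and 1568 to 1894 lower, of 13461 to 13502 tested.

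In mouse chondrocytes the same genes moved by far more. Arntl, Per1, Cry1, Cry2 and Nr1d1 had upregulated expression in the MM group, Per3, Nr1d2 and Dbp had downregulated expression, and Clock and Per2 did not pass the test. The 8 members called stand beside 75% of the 14774 genes tested, so most mouse genes passed the test. The 5 called higher stand beside 37.4% of genes called higher, and the 3 called lower beside 37.7% called lower. With libraries scaled by their totals alone, 4 members were higher and 5 lower, beside 3697 genes higher and 8077 lower. In size most members stood further out, but not all. The median absolute log2 fold change was 1.31 for the members against 0.51 for all genes tested. Of all genes tested, 6.69% had a larger absolute change than Arntl, 7.15% a larger one than Dbp and 9.27% a larger one than Per3. The shares were 19.4% for Per1, 19.6% for Cry1, 23.9% for Cry2 and 36.2% for Nr1d2. Nr1d1, Per2 and Clock changed less than most genes, with shares of 56.2%, 93.5% and 98.8%. By the study's criteria, which 25.6% of genes met, 4 members were higher (Arntl, Per1, Cry1 and Cry2), beside 12.6% of genes, and 2 were lower (Per3 and Dbp), beside 13% of genes. Nr1d2 missed the limit of 0.85 here, with a log2 fold change of -0.77. Over the alternative fits listed with the processing, Nr1d2 went down to -1.05, past the limit, and Cry2 went down to 0.83, short of it.

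**Figure D1:**
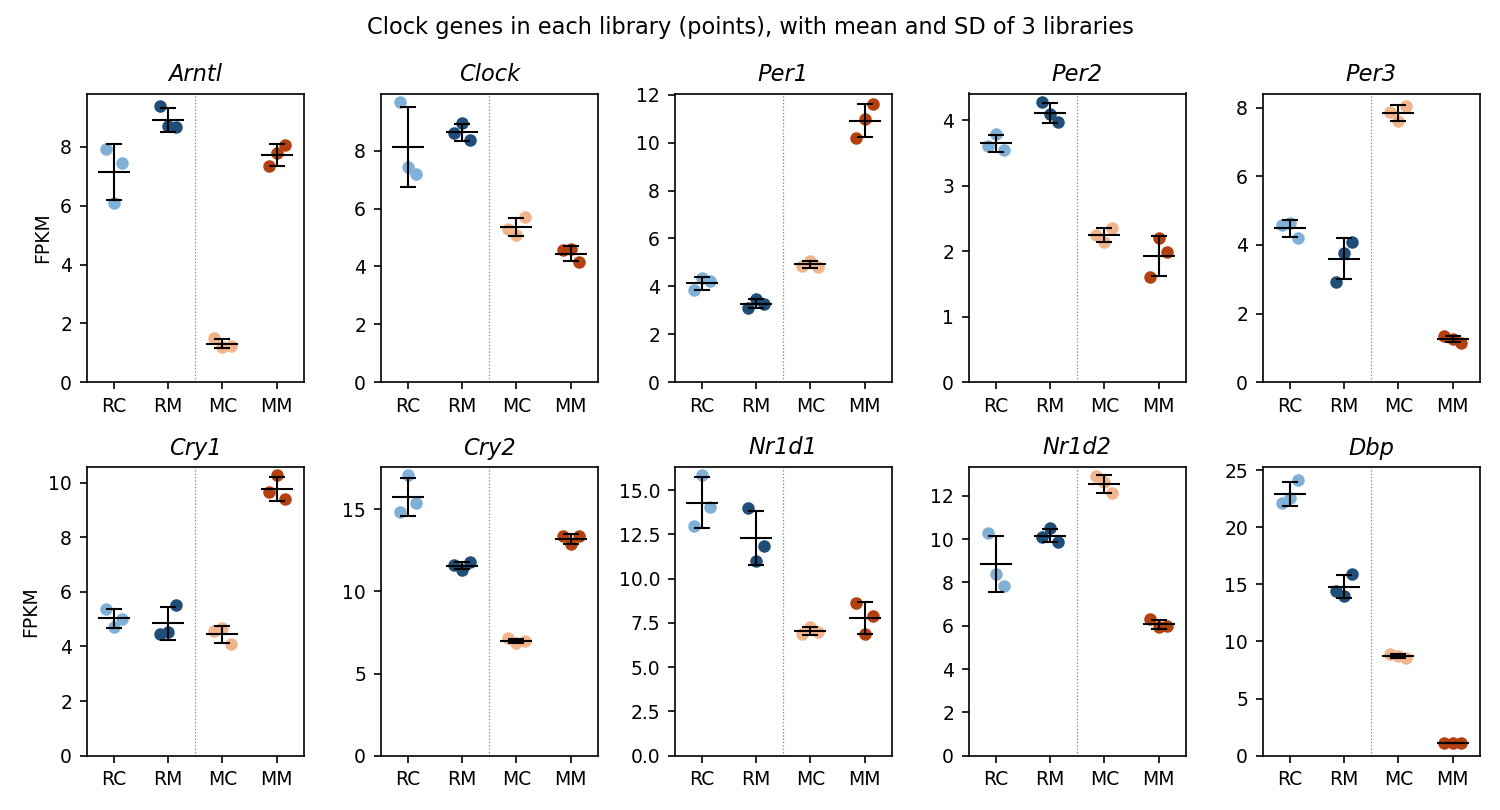
FPKM (level per exon length and library total) of each clock gene in each of the 12 libraries, grouped as RC, RM, MC and MM. Points are libraries, and the dash and bars are the mean and SD of 3 libraries. The Arntl points of MM lie between 7.34 and 8.06, above the MC points at 1.19 to 1.51, and the Dbp points fall from 8.52 to 8.88 in MC to 1.08 to 1.11 in MM.

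Levels below are in FPKM, which the authors scaled by library total alone. Fold changes are from counts scaled by TMM, which also adjusts for the makeup of the library. The choice matters in mouse, where the median log2 fold change of all genes was -0.02 with TMM and -0.30 with library totals alone, and hardly in rat, where it was 0.01 and 0.02. Mouse fold changes by TMM are therefore higher, by about the gap between these medians, than the FPKM alone would give. FPKM of the groups did not overlap for 6 of the 10 members in rat, beside 47.8% of genes tested. Of these 6, 2 were higher in RM and 4 lower, beside 25.5% and 22.3% of genes. In mouse 8 of 10 did not overlap, beside 80.3%, with 4 higher in MM and 4 lower, beside 25.4% and 54.9% of genes.

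The positive arm holds Arntl and Clock, the partners that drive transcription in the loop. Arntl lies on mouse chromosome 7 (GRCm38, 113207465 to 113314126, plus strand). Its level was 1.51, 1.19 and 1.24 FPKM in the MC libraries and 7.34, 7.78 and 8.06 FPKM in the MM libraries. Every MM library was several times above every MC library. The log2 fold change was 2.83 with an SE of 0.074 and an adjusted P of 2.88e-42, a 7.13-fold rise. In rat, Arntl was at 7.93, 6.10 and 7.44 FPKM in RC and 9.41, 8.70 and 8.68 FPKM in RM. The rat groups did not overlap, but RC replicate 2 was the low value. The rat log2 fold change was 0.30 with an SE of 0.11 and an adjusted P of 0.0466, and the adjusted P rose to between 0.0835 and 0.154 when any rat library other than RC replicate 1 was left out. The mean Arntl level of the control groups was 7.16 ± 0.949 (SD, n = 3) FPKM in RC and 1.31 ± 0.169 (SD, n = 3) in MC, and that of the model groups RM and MM was 8.93 ± 0.414 and 7.73 ± 0.363. The tables were normalised separately, and levels of rat and mouse were not tested against each other.

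NR1D and ROR receptors compete for RORE sequences in the Arntl promoter, so the bases before the rat Arntl start are shown. They come from RefSeq for the rat build GRCr8, a different build from the Rnor_6.0 named in the submitters' processing notes. They read 5′ to 3′ along the gene, with the RORE core in capitals at position -16, where -1 is the last base before the start, at chr1:176766078-176766327 on the plus strand.
Arntl: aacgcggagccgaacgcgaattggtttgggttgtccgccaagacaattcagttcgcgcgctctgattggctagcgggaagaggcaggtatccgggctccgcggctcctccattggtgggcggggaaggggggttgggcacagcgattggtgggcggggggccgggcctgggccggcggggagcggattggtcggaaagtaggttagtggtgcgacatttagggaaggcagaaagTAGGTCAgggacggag
Of the 10 members, 9 had such a window of 250 bases, and Cry1 had none in the table used. The RORE core was searched as TAGGTCA or TGGGTCA on both strands and occurred in 5.62% of 33469 rat promoter windows. Among the 9 members it occurred in Arntl alone. A match of letters is a description and says nothing about binding in these cells.

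Clock, the partner of Arntl, lies on mouse chromosome 5 (76209868 to 76304792, minus strand). It was at 5.29, 5.10 and 5.70 FPKM in MC and 4.56, 4.61 and 4.16 FPKM in MM, each MM value below each MC value. With TMM the log2 fold change was 0.01 (95% interval -0.09 to 0.11, adjusted P = 0.867), whereas with library totals alone it was -0.27 (adjusted P = 1.11e-06). The direction of mouse Clock therefore depended on the scaling. In rat it was at 9.71, 7.46 and 7.19 FPKM in RC and 8.62, 8.95 and 8.36 FPKM in RM, so that the RC values enclosed the RM values. The rat log2 fold change was 0.07 (95% interval -0.17 to 0.32, adjusted P = 0.636), and without RC replicate 1 it was 0.21 with an adjusted P of 0.0261.

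The 3 period genes encode repressors that enter the nucleus with the cryptochromes, and they parted ways in mouse. Per1 (chromosome 11, 69095217 to 69109960, plus strand) was at 4.87, 5.07 and 4.81 FPKM in MC and 10.2, 10.97 and 11.6 FPKM in MM, with no overlap. Its mouse log2 fold change was 1.43 with an SE of 0.058 (adjusted P = 6.68e-32), a 2.69-fold rise. In rat the direction was opposite. Per1 was at 3.83, 4.36 and 4.21 FPKM in RC and 3.09, 3.49 and 3.27 FPKM in RM, again with no overlap. The rat log2 fold change was -0.35 with an SE of 0.10 and an adjusted P of 0.0228. That call was lost with limma on log2 FPKM (adjusted P of 0.0536 and 0.0596 with pseudocounts of 1 and 0.1) and without any of RC replicate 2, RC replicate 3, RM replicate 1 and RM replicate 3 (adjusted P of 0.0672 to 0.0929).

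Per2 lies on mouse chromosome 1 (91415982 to 91459324, minus strand) and was at 2.25, 2.14 and 2.36 FPKM in MC and 1.60, 2.20 and 1.98 FPKM in MM, so that the groups overlapped. Its mouse log2 fold change was 0.05 (95% interval -0.16 to 0.27, adjusted P = 0.666) with TMM and -0.23 (adjusted P = 0.0463) with library totals alone. In rat it was at 3.61, 3.80 and 3.55 FPKM in RC and 4.28, 4.10 and 3.98 FPKM in RM. These rat values did not overlap, but the log2 fold change of 0.16 (95% interval -0.02 to 0.34) did not pass the test (adjusted P = 0.158). Per2 was the only member window with a D-box, the sequence through which DBP acts. The rat window is shown with its D-box at position -192 and its E-prime box, a variant of the E-box, at -62 in capitals, at chr9:99496994-99497243 on the minus strand of GRCr8.
Per2: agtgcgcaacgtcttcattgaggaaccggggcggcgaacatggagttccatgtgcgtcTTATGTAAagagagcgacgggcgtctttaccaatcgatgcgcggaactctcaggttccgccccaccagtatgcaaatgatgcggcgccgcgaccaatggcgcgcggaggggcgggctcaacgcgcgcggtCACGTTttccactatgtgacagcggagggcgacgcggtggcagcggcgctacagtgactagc
The D-box, searched as TTATGTAA or TTACATAA, occurred in 0.828% of all rat windows, and the E-prime box, searched as CACGTT or AACGTG, in 4.07%. Cry2 and Nr1d1 were the other members with an E-prime box, at positions -212 and -174.

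Per3 fell furthest of the period genes. It lies on mouse chromosome 4 (151003652 to 151044665, minus strand) and was at 7.87, 7.60 and 8.05 FPKM in MC and 1.35, 1.26 and 1.16 FPKM in MM. The MM libraries were all far below the MC libraries, with a log2 fold change of -2.36, an SE of 0.066 and an adjusted P of 8.44e-41, or 5.15-fold lower. In rat Per3 was at 4.58, 4.65 and 4.204 FPKM in RC and 2.93, 3.77 and 4.09 FPKM in RM, without overlap but with RM replicate 1 well below the others. The rat log2 fold change of -0.33 (95% interval -0.59 to -0.07) lay at the threshold, with an adjusted P of 0.0506 that became 0.029 without RC replicate 1 and 0.0317 without RM replicate 3. It also passed with RLE factors, DESeq2 and both other filters (0.033 to 0.0466). Without RM replicate 1, the low library, the change was -0.20 (adjusted P = 0.158), and limma gave adjusted P of 0.111 and 0.115.

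The 2 cryptochromes, the repressors that bind CLOCK and ARNTL directly, both rose in mouse. Cry1 (chromosome 10, 85131700 to 85185064, minus strand) was at 4.58, 4.66 and 4.09 FPKM in MC and 9.65, 10.3 and 9.40 FPKM in MM, with a log2 fold change of 1.42 (SE 0.077, adjusted P = 2.01e-25). Cry2 (chromosome 2, 92403646 to 92434043, minus strand) was at 7.14, 6.87 and 6.98 FPKM in MC and 13.4, 12.9 and 13.4 FPKM in MM, with a log2 fold change of 1.20 (SE 0.048, adjusted P = 2.7e-32). Neither gene's groups overlapped, and the rises were 2.67-fold and 2.29-fold. In rat, Cry1 was at 5.38, 4.70 and 5.01 FPKM in RC and 4.46, 4.53 and 5.53 FPKM in RM, which overlapped (log2 fold change -0.07, 95% interval -0.33 to 0.18, adjusted P = 0.67). Rat Cry2 went the other way from mouse Cry2. It was at 14.8, 17.1 and 15.4 FPKM in RC and 11.6, 11.3 and 11.8 FPKM in RM, with no overlap. The log2 fold change was -0.46 with an SE of 0.078 (adjusted P = 0.00114), and the call held without each rat library in turn. In the mouse annotation a transcript on the other strand, D930015M05Rik, shares 4.67% of the exon bases of Cry2, and it took 234 counts over the 6 mouse libraries.

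Nr1d1 and Nr1d2 encode the REV-ERB receptors, and the pair split in mouse. Nr1d2 (chromosome 14, 18204054 to 18239127, minus strand) was the highest member in MC. It was at 12.9, 12.7 and 12.1 FPKM in MC and 6.30, 5.92 and 5.99 FPKM in MM, without overlap, with a log2 fold change of -0.77 (SE 0.054, adjusted P = 3.82e-20). Nr1d1 (chromosome 11, 98767932 to 98775333, minus strand) was at 6.85, 7.26 and 7.00 FPKM in MC and 8.64, 6.85 and 7.90 FPKM in MM, and these values overlapped because MM replicate 2 lay at the level of MC. Its log2 fold change was 0.43 with TMM (SE 0.079, adjusted P = 2.61e-06) and 0.15 with library totals alone (adjusted P = 0.0822), so the call rested on the scaling. Nr1d1 shares 263 exon bases, 8.55% of its exons, with Thra on the opposite strand, and Thra, which encodes a thyroid hormone receptor, fell in mouse (log2 fold change -0.63, adjusted P = 4.47e-21). In the rat RefSeq annotation the spans of Nr1d1 and Thra also overlap, but shared exon bases and strand were not measured there. The rat log2 fold change of Thra was -0.15 (adjusted P = 0.119). Since the strand setting of the counting is not given, reads of the shared bases cannot be assigned to one of these genes.

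In rat, neither receptor passed the test. Nr1d1 was at 13.0, 15.9 and 14.1 FPKM in RC and 14.0, 11.0 and 11.8 FPKM in RM (log2 fold change -0.24, 95% interval -0.48 to 0.00, adjusted P = 0.113). Nr1d2 was at 10.3, 8.40 and 7.85 FPKM in RC and 10.1, 10.5 and 9.88 FPKM in RM (log2 fold change 0.18, 95% interval -0.04 to 0.41, adjusted P = 0.192). The groups overlapped for both. Without RC replicate 1 both passed, Nr1d1 lower (-0.32, adjusted P = 0.0155) and Nr1d2 higher (0.29, adjusted P = 0.00655). ARNTL and CLOCK act on Nr1d1 through E-boxes. The window before the first annotated start of rat Nr1d1, shown here, held 0 E-boxes and 1 E-prime box. Its E-prime box is in capitals, at chr10:84231813-84232062 on the minus strand of GRCr8.
Nr1d1: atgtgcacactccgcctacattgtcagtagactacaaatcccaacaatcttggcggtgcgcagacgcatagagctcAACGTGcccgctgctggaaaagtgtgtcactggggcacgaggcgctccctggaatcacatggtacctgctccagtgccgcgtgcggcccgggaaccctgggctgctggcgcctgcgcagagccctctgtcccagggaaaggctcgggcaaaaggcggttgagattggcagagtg
The window of a second Nr1d1 start held the E-box CACGTG at position -191, the only member window with that motif, which occurred in 5.59% of all rat windows.

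Dbp, the output factor of the PAR bZIP family, fell in both species. It lies on mouse chromosome 7 (45705088 to 45710203, plus strand). In mouse it was at 8.88, 8.77 and 8.52 FPKM in MC and 1.08, 1.08 and 1.11 FPKM in MM, from 442 to 458 counts per MC library and 58 to 65 per MM library. The libraries of each group lay close together and far from the other group. The log2 fold change was -2.72 with an SE of 0.11 (adjusted P = 1.44e-31), or 6.59-fold lower. In rat Dbp was at 22.1, 22.5 and 24.1 FPKM in RC and 14.5, 14.0 and 15.9 FPKM in RM, again without overlap. The rat log2 fold change was -0.65 with an SE of 0.081 (adjusted P = 0.000164), or 1.57-fold lower, which was the largest change of the 10 members in rat and one that 17.9% of genes exceeded. The call held without each rat library in turn, with adjusted P of at most 0.00206. In the mouse annotation Dbp shares 539 exon bases, 18% of its exons, with Sphk2 on the opposite strand. Sphk2, a sphingosine kinase gene, had a log2 fold change of 0.28 in MM with TMM (adjusted P = 8.77e-05), but its FPKM overlapped, at 8.23, 8.14 and 8.07 in MC and 7.93, 8.62 and 7.83 in MM.

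The order of the 10 levels changed with IL-1β in mouse more than in rat. In RC, Dbp was highest at 22.9 ± 1.05 FPKM (SD, n = 3), followed by Cry2 at 15.8 ± 1.16 and Nr1d1 at 14.3 ± 1.45, which overlapped each other. Nr1d2, Clock and Arntl followed, neighbours in the order that overlapped, then Cry1, then Per3 and Per1, which overlapped, and Per2 was lowest at 3.65 ± 0.128 FPKM. In RM, Dbp was still highest, at 14.8 ± 0.997 FPKM, before Nr1d1 and Cry2, which overlapped, and Per1 was lowest at 3.28 ± 0.202. In MC, Nr1d2 led at 12.6 ± 0.411 FPKM, followed by Dbp and Per3, and Arntl was lowest at 1.31 ± 0.169. In MM, Cry2 led at 13.2 ± 0.298 FPKM, before Per1 and Cry1, which overlapped each other, then Nr1d1 and Arntl, which overlapped too, and Dbp was lowest at 1.09 ± 0.017. The highest mean was 6.27 times the lowest in RC, 4.51 times in RM, 9.62 times in MC and 12.1 times in MM.

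The ratio of Arntl to Nr1d1, Dbp and Per2, genes of the opposite phase, set these levels against each other within a library. Ratios to Per1, Per3 and Nr1d2 were not formed. In mouse Per1 rose along with Arntl (log2 fold change 1.43), while Per3 and Nr1d2 fell (-2.36 and -0.77). In mouse, the log2 ratio of Arntl to Dbp FPKM was -2.56, -2.88 and -2.78 in MC and 2.76, 2.85 and 2.86 in MM. Arntl went from below Dbp in every MC library to above it in every MM library, with a mean shift of 5.56 on the log2 scale (exact two-sided permutation test, P = 0.1, the smallest that 3 against 3 libraries can give). In rat, the same ratio was -1.48, -1.89 and -1.70 in RC and -0.62, -0.69 and -0.88 in RM, a mean shift of 0.96 (exact permutation P = 0.1), and Arntl stayed below Dbp. The log2 ratio of Arntl to Nr1d1 shifted by 2.42 in mouse, from -2.43 ± 0.22 to -0.01 ± 0.21, and by 0.55 in rat, from -1.0 ± 0.34 to -0.45 ± 0.12 (SD, n = 3, exact permutation P = 0.1 in both). The ratio of Arntl to Per2 shifted by 2.80 in mouse (exact permutation P = 0.1) and by 0.15 in rat (exact permutation P = 0.4), where the groups overlapped. Without RC replicate 1 the rat shifts were 1.06 against Dbp, 0.70 against Nr1d1 and 0.24 against Per2. Over these 6 comparisons no P could pass 0.05 in this design.

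**Figure D2:**
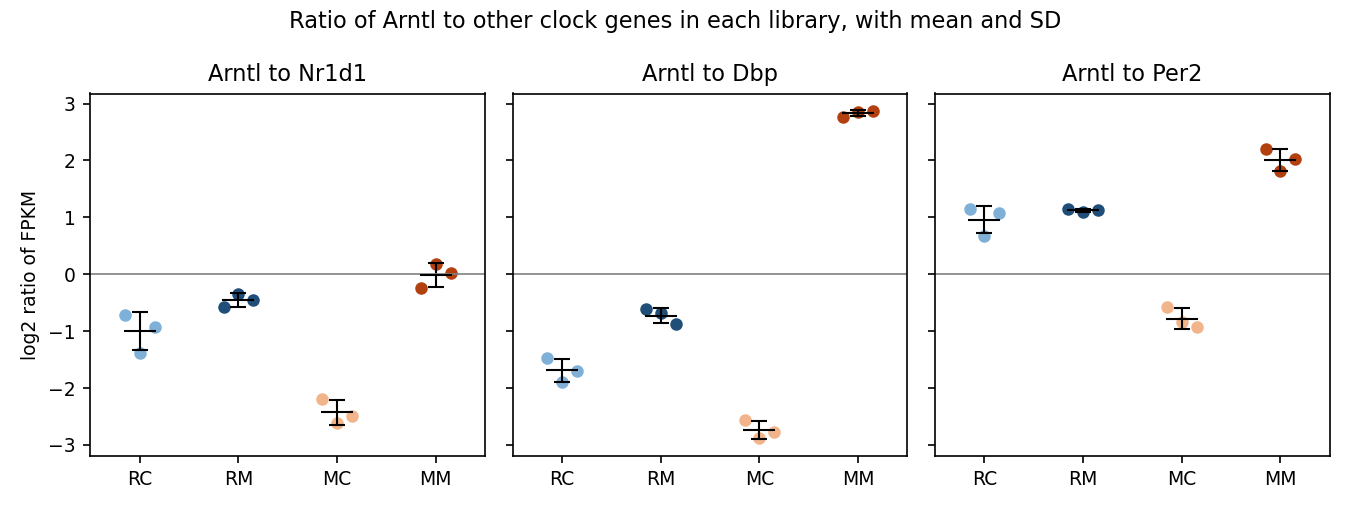
Log2 ratio of Arntl FPKM to the FPKM of Nr1d1, Dbp and Per2 in each library, by group. Points are libraries, and the dash and bars are the mean and SD of 3 libraries. In mouse the Arntl to Dbp ratio lies at -2.88 to -2.56 in MC and at 2.76 to 2.86 in MM, and in rat it lies below 0 in all 6 libraries.

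Whether the response differed between the species was tested directly, as the log2 change in mouse minus that in rat, in a joint fit of the 10912 genes tested in both. The difference passed for 8 of the 10 members, beside 63.8% of the genes. It was positive for 5 of them, beside 31.4% of the genes, and negative for 3, beside 32.3%. Arntl differed by 2.53 (SE 0.14, adjusted P = 1.06e-10), Per1 by 1.77, Cry2 by 1.66, Cry1 by 1.49 and Nr1d1 by 0.67 (adjusted P = 0.000832), all towards a higher value in mouse. Dbp differed by -2.07 (SE 0.12, adjusted P = 1.8e-10), Per3 by -2.04 and Nr1d2 by -0.95 (adjusted P = 2.26e-06), towards a lower value in mouse. For Clock the difference was -0.06 (95% interval -0.34 to 0.21) and for Per2 -0.10 (95% interval -0.41 to 0.20), and neither passed with TMM. Both passed with library totals alone, Clock at -0.36 (adjusted P = 0.0217) and Per2 at -0.40 (adjusted P = 0.0212), and Clock also passed without RC replicate 1 (-0.20, adjusted P = 0.0433). The median absolute difference was 1.57 for the members and 0.50 for all genes tested. By direction of the calls in both species, 1 member rose in both (Arntl), 1 fell in both (Dbp) and 2 fell in rat and rose in mouse (Per1 and Cry2), patterns that 9.28%, 10.1% and 5.18% of the 10912 genes showed. In mouse alone, 2 members were called higher (Cry1 and Nr1d1), beside 24.5% of genes, and 2 lower (Per3 and Nr1d2), beside 22.5%. Clock and Per2 were called in neither species, as were 15.8% of genes.

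**Figure D3:**
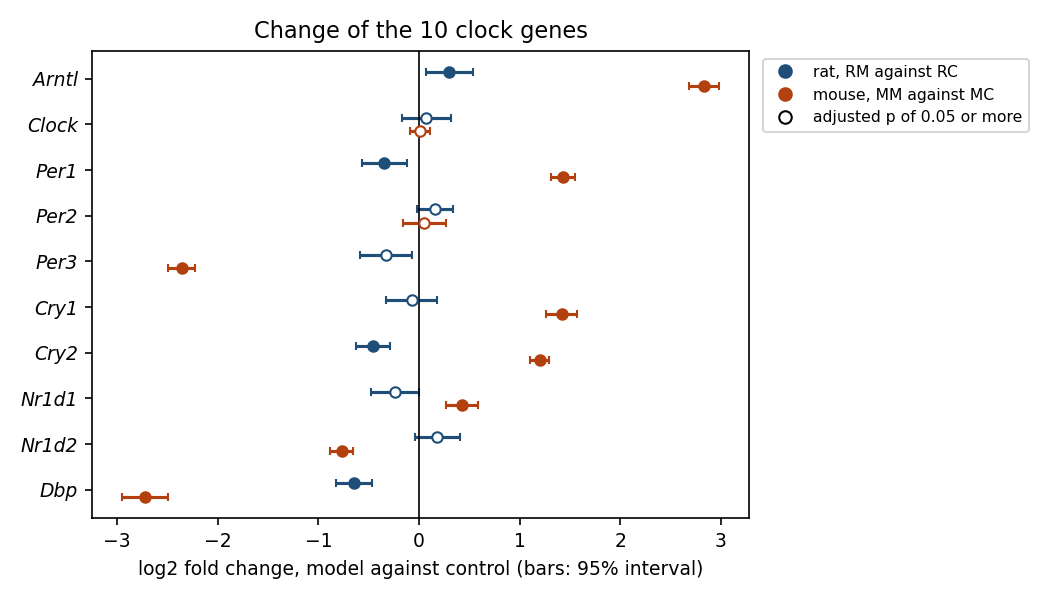
Log2 fold change of each clock gene in the model group against the control group, in rat (RM against RC) and mouse (MM against MC), with 95% intervals from edgeR. Filled points passed an adjusted P of 0.05 and open points did not. The rat values lie between -0.65 and 0.30, and the mouse values between -2.72 and 2.83.

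Other genes of the clock pathway moved too. Of 19 companion genes, 17 were tested in rat, where 8 had upregulated and 3 downregulated expression, and 18 were tested in mouse, where 11 had upregulated and 5 downregulated expression. The shares of all genes given above, 18.3% and 16.8% in rat and 37.4% and 37.7% in mouse, are the background of these counts. Without RC replicate 1 the rat counts were again 8 higher and 3 lower, beside 24.1% and 22.4% of all genes in that fit. With library totals alone the mouse counts were 9 higher and 6 lower, beside 3697 and 8077 of the 14774 genes tested. Of the paralogs of the positive arm, Npas2 rose in both species and Arntl2 was called in rat alone. Npas2, which can stand in for Clock, was at 0.524, 0.645 and 0.802 FPKM in MC and 2.17, 2.15 and 2.46 FPKM in MM (log2 fold change 2.05, adjusted P = 1.12e-19), and rose in rat by 0.54 (adjusted P = 0.000715). Arntl2, the paralog of Arntl, rose in rat, from 1.03, 1.25 and 0.616 FPKM in RC to 2.46, 2.71 and 2.07 FPKM in RM (log2 fold change 1.30, adjusted P = 0.00272). In mouse its log2 fold change was -0.03 with TMM (95% interval -0.33 to 0.26) and -0.31 with library totals alone (adjusted P = 0.0482).

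Rora, which encodes a ROR receptor that activates Arntl at RORE sequences, rose in mouse. It was at 2.79, 2.59 and 2.85 FPKM in MC and 12.1, 11.7 and 11.1 FPKM in MM, a log2 fold change of 2.36 (adjusted P = 3.65e-49). In rat, Rora had a log2 fold change of 0.28 (95% interval -0.12 to 0.68, adjusted P = 0.254), and Rorb was too low to test in either species.

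Of the other E-box repressors, Bhlhe40 rose in both species. It was at 20.1, 21.6 and 18.9 FPKM in RC and 41.5, 41.9 and 39.2 FPKM in RM, and at 10.7, 10.3 and 11.02 FPKM in MC and 49.3, 50.2 and 52.9 FPKM in MM, with log2 fold changes of 1.00 (adjusted P = 5.97e-06) and 2.53 (adjusted P = 3.24e-54). Its relative Bhlhe41 moved in opposite directions. It fell in rat, from 33.0, 33.9 and 34.2 FPKM in RC to 23.9, 22.5 and 20.7 FPKM in RM (log2 fold change -0.61, adjusted P = 0.000225), and rose in mouse, from 1.67, 1.68 and 1.73 FPKM in MC to 5.05, 4.98 and 5.04 FPKM in MM (log2 fold change 1.85, adjusted P = 9.12e-31). Ciart, a repressor of CLOCK and ARNTL, was at 2.58, 2.76 and 2.93 FPKM in MC and 11.8, 12.9 and 13.5 FPKM in MM (log2 fold change 2.48, adjusted P = 5.18e-33), and at 3.42, 3.00 and 3.11 FPKM in RC and 3.17, 3.27 and 4.16 FPKM in RM, where the groups overlapped (log2 fold change 0.14, adjusted P = 0.535). The rat Ciart window is shown because it held the E-box 3 times, at positions -93, -35 and -21, in capitals, at chr2:186112247-186112496 on the minus strand of GRCr8.
Ciart: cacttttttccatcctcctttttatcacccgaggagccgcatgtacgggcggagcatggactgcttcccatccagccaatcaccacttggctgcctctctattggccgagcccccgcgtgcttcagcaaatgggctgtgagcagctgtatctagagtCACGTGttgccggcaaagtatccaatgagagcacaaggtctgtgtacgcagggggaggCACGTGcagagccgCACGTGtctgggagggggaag
Bhlhe40, Bhlhe41 and Tef were the other companion genes with this E-box among the 16 that had a window.

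The D-box factors moved in opposite directions within each species. Tef, an activator of the same family as Dbp, fell in mouse from 22.2, 21.0 and 20.8 FPKM in MC to 6.99, 6.38 and 6.22 FPKM in MM (log2 fold change -1.43, adjusted P = 1.95e-38), and in rat by 0.36 on the log2 scale (adjusted P = 0.00832). Nfil3, the repressor that competes for the D-box, rose in mouse from 9.83, 9.06 and 8.49 FPKM in MC to 36.9, 40.5 and 37.9 FPKM in MM (log2 fold change 2.35, adjusted P = 7.26e-43), and in rat by 0.88 (adjusted P = 0.0017). Dbp and Tef were thus lower and Nfil3 higher in the model group of both species. Hlf was at 0.217 to 0.344 FPKM in the mouse libraries. Its mouse log2 fold change was 0.63 (adjusted P = 0.0285), a call that 9 of 15 alternatives lost, and was not tested in rat.

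The 5 listed kinases and ubiquitin ligases that help set the stability of PER and CRY moved by at most 0.74 on the log2 scale in mouse and 0.35 in rat. In rat only Btrc passed (log2 fold change -0.35, adjusted P = 0.00579), and in mouse it fell by 0.44 (adjusted P = 6.55e-09). Fbxw11 rose in mouse by 0.74 and Csnk1e by 0.43, or by 0.15 with library totals alone (adjusted P = 0.0103). Csnk1d was called higher in mouse by 0.25 with TMM, but its sign turned with library totals alone (-0.03).

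Of the clock-controlled and clock-associated genes, Noct rose in both species. It rose by 2.95 on the log2 scale in mouse (adjusted P = 1.95e-41) and by 0.76 in rat (adjusted P = 0.00941). Wee1, a kinase that restrains entry into mitosis, was at 5.92, 6.32 and 6.42 FPKM in RC and 10.8, 11.98 and 10.8 FPKM in RM, and at 10.7, 9.43 and 9.15 FPKM in MC and 1.56, 1.47 and 1.99 FPKM in MM. It rose in rat (log2 fold change 0.83, adjusted P = 3.59e-05) and fell in mouse (log2 fold change -2.27, adjusted P = 3.91e-30). Timeless, which acts at the replication fork, showed the same split, rising by 0.57 in rat (adjusted P = 0.000303) and falling by 2.07 in mouse (adjusted P = 6.02e-23). The paper reports that the rate of EdU-positive cells, a measure of proliferation, was raised in RM and lowered in MM. The part of proliferation in the Wee1 and Timeless changes was not tested. Usp2, a ubiquitin protease, rose in rat by 0.40 (adjusted P = 0.0169, but 0.0577 without RM replicate 2 and 0.0715 without RM replicate 3) and fell in mouse by 0.62 (adjusted P = 0.000732).

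**Figure D4:**
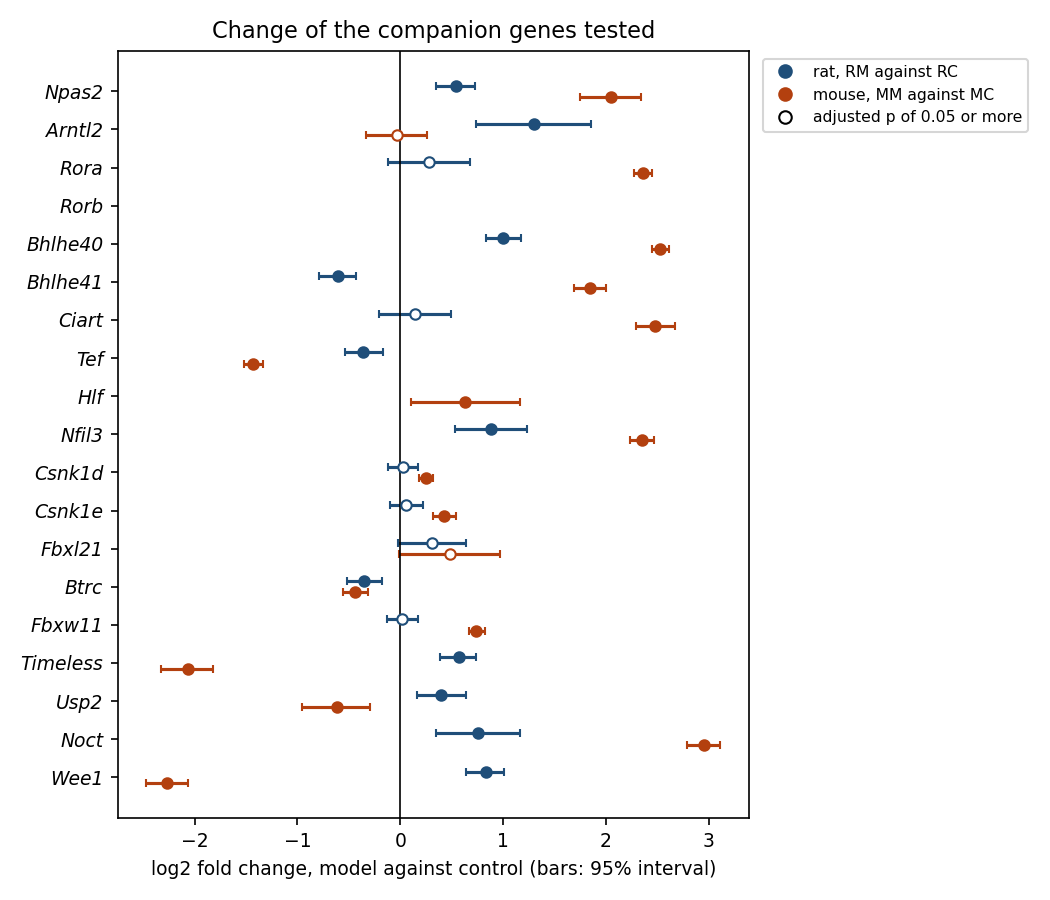
Log2 fold change of the companion clock genes tested in rat (RM against RC) and mouse (MM against MC), with 95% intervals from edgeR. Filled points passed an adjusted P of 0.05 and open points did not. Bhlhe41 lies at -0.61 in rat and 1.85 in mouse, and Timeless, Usp2 and Wee1 lie above 0 in rat and below 0 in mouse.

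The genes whose pattern over the 12 libraries was most like that of Arntl, the member with the smallest adjusted P in mouse, were Sat1, Tpd52 and Slc39a10. Likeness was the root mean square difference in log2 CPM (counts scaled to the library total adjusted by TMM) after the control mean of the species had been subtracted, among 10902 genes. It was 0.127 for Sat1, which encodes a polyamine acetyltransferase, where the log2 change was 0.37 in rat and 2.67 in mouse. It was 0.134 for Tpd52 (0.15 and 2.66) and 0.141 for Slc39a10, a zinc transporter gene (0.34 and 2.87). The likeness is a description over libraries that share their treatment.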

How the data were processed

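RNA was extracted with Trizol and libraries were made with the NEBNext Ultra kit. Per the labels, the submitters' processing notes name HISAT2, HTSeq 0.11.2, GRCm38 and Rnor_6.0 without their roles, and no source used here gives the strand setting. The authors deposited 1 table per species with raw read counts and FPKM values per Ensembl gene and library, and FPKM carry no scaling beyond gene length and library total.

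The counts were analysed per species in R 4.3.3 with edgeR 4.0.16 (filterByExpr, TMM, glmQLFit, glmQLFTest). P values were adjusted by Benjamini-Hochberg over all genes tested. The species difference was fitted over genes shared by symbol, with TMM factors set within species. Ratios were tested by exact permutation (scipy 1.17.1). Alternatives were library totals alone, RLE factors, DESeq2 1.42.0, limma 3.58.1 on log2(FPKM + 1) and log2(FPKM + 0.1), no filter, a filter of CPM of at least 1 in 3 libraries, a replicate block, leaving out each library, and the study's criteria.

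Library totals were 21114361 to 24897458 counts in RC, 20169272 to 25903459 in RM, 16841580 to 17957308 in MC and 17482589 to 20048322 in MM. Mouse positions and overlaps come from GENCODE M21, in which 28595 of 28603 mouse identifiers occur. Rat promoter sequences are from RefSeq (GRCr8), matched by symbol.

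All members and all tested companion genes were open to naming, with Thra and Sphk2 as overlapping neighbours, the IL-1 response and cell type lists, and the 3 genes most like Arntl. Companion genes not reported here were left out of the list and its counts. The members and lists were chosen with earlier results of these data known.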

Additional observations from a re-analysis of the deposited data

Results flagged for a closer look

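The response to IL-1β was compared between the species by the test of the difference itself. The test used edgeR on the log2 change in mouse minus that in rat, with an adjusted P under 0.05. Of the 10 clock genes, 5 differed towards a higher value in mouse and 3 towards a lower one, beside 31.4% and 32.3% of all genes. Clock (-0.06) and Per2 (-0.10) did not pass. The differences towards a higher value in mouse were 2.53 for Arntl, 1.77 for Per1, 1.66 for Cry2, 1.49 for Cry1 and 0.67 for Nr1d1, and those towards a lower value were -2.07 for Dbp, -2.04 for Per3 and -0.95 for Nr1d2.

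Among the companion genes, 10 of 17 tested differed towards a higher value in mouse and 5 towards a lower one, beside 31.4% and 32.3% of all genes, while Btrc and Fbxl21 did not pass. These differences were 2.45 for Bhlhe41, 2.34 for Ciart, 2.20 for Noct, 2.08 for Rora, 1.53 for Bhlhe40, 1.51 for Npas2, 1.47 for Nfil3, 0.72 for Fbxw11, 0.37 for Csnk1e and 0.22 for Csnk1d. Those of Csnk1e and Csnk1d did not hold with library totals alone (0.08 and -0.07). The differences towards a lower value were -3.10 for Wee1, -2.64 for Timeless, -1.33 for Arntl2, -1.07 for Tef and -1.03 for Usp2. Each species is 1 strain in the methods, so species and strain cannot be told apart.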

How the results depend on the processing

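The mouse counts of clock genes, 5 higher and 3 lower, held under DESeq2, RLE factors, both other filters and without each library in turn. With library totals alone 4 were higher and 5 lower, since Nr1d1 was lost and Clock and Per2 turned to -0.27 and -0.23, and Clock was at -0.22 and -0.26 with limma. Csnk1d turned to -0.03 in mouse and -0.07 in the species difference with library totals alone and with limma at both pseudocounts. Limma called no rat clock gene higher (0 at both pseudocounts), and 3639 and 3635 mouse genes higher against 7975 and 7969 lower. Under the study's criteria the counts were 617 higher and 519 lower of all rat genes, 0 and 0 of rat clock genes, 3 and 0 of rat companion genes, 1862 and 1919 of all mouse genes, 7 and 3 of mouse companion genes, and 3132 for the species difference. With FPKM + 0.1 the mouse Arntl to Dbp shift was 5.37.

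Leaving out 1 library at a time gave 0 to 3 rat clock genes higher and 2 to 5 lower, 1735 to 3243 rat genes higher and 1568 to 3008 lower, and 8 to 9 clock genes in the species difference. The rat ratio shifts ranged from 0.36 to 0.7 for Nr1d1, 0.86 to 1.06 for Dbp and 0.01 to 0.24 for Per2.

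Libraries with the same number did not deviate together (correlations of -0.098 to 0.085 in rat and 0.001 to 0.015 in mouse), so the numbers were not taken as pairs. With a replicate block, 1 rat clock gene was higher and 4 were lower, Per3 being added at an adjusted P of 0.0461 (as with RLE factors, DESeq2 and both other filters), of 2436 and 2098 rat genes in all, and the mouse counts stayed at 5 and 3.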
